A study of Homo sapiens with 14 samples.

Results

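Notch receptors, ligands and targets were followed in SCC23 cells, an established line of head and neck squamous cell carcinoma (HNSCC). The 10 genes were chosen by name from the 59471 gene names of the count tables. They are the receptors NOTCH1, NOTCH2 and NOTCH3, the ligands JAG1, JAG2 and DLL1, the DNA-binding factor RBPJ, its coactivator MAML1, and the target genes HES1 and HEY1. All 10 were present in the tables. The data are RNA-seq libraries of KMT2D-WT cells, which had received a sgRNA against LacZ, and of the KMT2D-KO lines KO1 and KO2. KO1 and KO2 had each received a different sgRNA against KMT2D. KMT2D-WT and KMT2D-KO cells were made with a Cas9 plasmid that carries GFP and sorted for GFP. No cloning of single cells is described, so each line is a sorted population. Cells were kept in high-glucose medium (+Glc) or were deprived of glucose for 6 h (−Glc). Each condition holds 3 KMT2D-WT libraries, of which 1 is from experiment 1 and the others are from experiment 2, and 4 KMT2D-KO libraries, which are KO1 and KO2 of each experiment.

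Notch receptors are carried on the cell surface and are bound by Jagged and Delta-like ligands on a neighbouring cell. Binding leads to cleavage of the receptor, first by ADAM proteases and then by γ-secretase, and the freed intracellular part enters the nucleus, where it joins RBPJ and a Mastermind-like coactivator on DNA. HES and HEY genes, which code for transcriptional repressors, are the best-known targets. In squamous epithelium the pathway is known for its part in differentiation, and NOTCH1 is often mutated in HNSCC. KMT2D is a histone methyltransferase that places H3K4 methylation at enhancers.

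Promoter sequence is shown for the members that carry the core of the RBPJ motif, because RBPJ is the factor through which the receptors act on their targets. The letters TGGGAA were searched on both strands in the 250 bases before each start in the RefSeq promoter table (GRCh38.p14). The search covered 12 windows of 8 members. None was used for DLL1 or HEY1, so the promoters of these members were not examined. A match was found in the window of HES1 and in 1 of the 5 windows of RBPJ, and these letters were absent from the windows of NOTCH1, NOTCH2, NOTCH3, JAG1, JAG2 and MAML1. Of all 35116 windows, 20.8% held a match and 2.9% held at least 2. Each line gives the 150 bases before the start, with the motif or its reverse complement TTCCCA in capitals.
HES1, chr3:194135998-194136147, plus strand: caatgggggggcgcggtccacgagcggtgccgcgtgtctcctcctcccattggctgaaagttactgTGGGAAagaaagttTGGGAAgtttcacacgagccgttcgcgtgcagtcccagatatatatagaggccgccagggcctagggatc
RBPJ, chr4:26319596-26319745, plus strand: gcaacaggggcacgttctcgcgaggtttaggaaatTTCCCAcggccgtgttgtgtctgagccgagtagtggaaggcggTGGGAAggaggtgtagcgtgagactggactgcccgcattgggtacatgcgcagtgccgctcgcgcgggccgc
The HES1 window holds a pair of matches on the strand of the gene, which begin 84 and 70 bases before the start. In the RBPJ window the match on the strand of the gene begins 72 bases before the start, and the match on the other strand 115 bases before it. A match describes the letters only.

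The libraries held 15669154 to 62968057 counts. In the 4 libraries of experiment 2 kept in glucose, read pairs were counted mate by mate, and even numbers made up 67.4% to 70.6% of counts between 1 and 10. In the 10 libraries counted as single reads this share was 37.4% to 42.7%. In experiment 2, glucose and the way of counting therefore cannot be told apart. The targeted gene KMT2D (chr12:49018978-49060794) was at 270.5 to 274.4 CPM (counts scaled by TMM to a common library total) in KMT2D-WT cells with glucose, at 174.8 and 187.2 CPM in KO1 and at 320.3 and 371.2 CPM in KO2. Small Cas9 edits need not lower a transcript, so these levels check the labels only in part. Without glucose, KMT2D was at 234.3 to 239.0 CPM in KMT2D-WT cells and at 146.1 to 189.9 CPM in 3 KMT2D-KO libraries, while KO1 of experiment 1 stood apart at 19.9 CPM. Over 20 genes that separated the lines with glucose, the libraries of experiment 2 without glucose labelled KO1 and KO2 both lay near KO2, at a mean log2 distance of 0.39 and 0.41, against 3.96 and 3.94 to KO1. They differed by a chi-square of 1.71 per gene, and the 2 KMT2D-WT libraries beside them by 1.66, against 23.0 to 72.7 in the other pairs of 1 genotype. The lines were therefore not compared without glucose. The KMT2D-KO libraries without glucose may also hold more of KO2 than those with glucose. In that case line and glucose are mixed in the difference between conditions and in deprivation of KMT2D-KO cells, which was not tested. The experiments are described as independent. Whether the libraries within one come from separate cultures is not stated, so p-values measure the spread between these libraries, which may be technical. All 7 squamous markers (KRT5, KRT14, KRT17, TP63, CDH1, ITGA6 and EPCAM) exceeded 1 CPM in every library. They summed to 1089 to 1499 CPM in KMT2D-WT and 937.4 to 1643 CPM in KMT2D-KO cells with glucose, and to 1197 to 1773 and 1209 to 2902 CPM without. KRT17 was at 140.3 to 210.3 CPM in KMT2D-WT and 366.6 to 1301 CPM in KMT2D-KO cells without glucose, and KRT14 at 186.7 to 238.6 and 26.9 to 135.6 CPM with glucose. In the other condition each overlapped, KRT17 at 75.6 to 144.4 and 24.4 to 218.4 CPM, and KRT14 at 189.0 to 224.3 and 134.3 to 252.3 CPM. KRT5, TP63, CDH1, ITGA6 and EPCAM overlapped between genotypes in both conditions, which does not mean that they were alike. Without glucose KRT5 was at 19.9 to 22.4 CPM in KMT2D-WT cells and at 15.4 to 224.7 CPM (median 181.6) in KMT2D-KO cells. CDH1 was at 60.1 to 64.4 and at 61.2 to 225.4 CPM (median 207.4) there. The 4 fibroblast markers summed to 3.22 to 6.92 CPM in KMT2D-WT and 7.44 to 16.4 CPM in KMT2D-KO cells. Most of this was COL1A1, at 3.11 to 6.75 and 7.27 to 15.4 CPM, while DCN, LUM and PDGFRB were each at most 0.811 CPM. The 3 endothelial markers summed to 0.398 to 1.15 and 0.309 to 4.08 CPM, and the highest of these sums was CDH5 alone. The 3 leukocyte markers summed to at most 1.07 CPM. Without glucose, mitochondrial genes took 2.64% to 2.77% of counts in KMT2D-WT and 3.82% to 4.83% in KMT2D-KO cells, and the 10 most abundant genes took 4.53% to 4.98% and 7.04% to 7.42%. The part of these measures in the results was not tested.

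**Figure D1:**
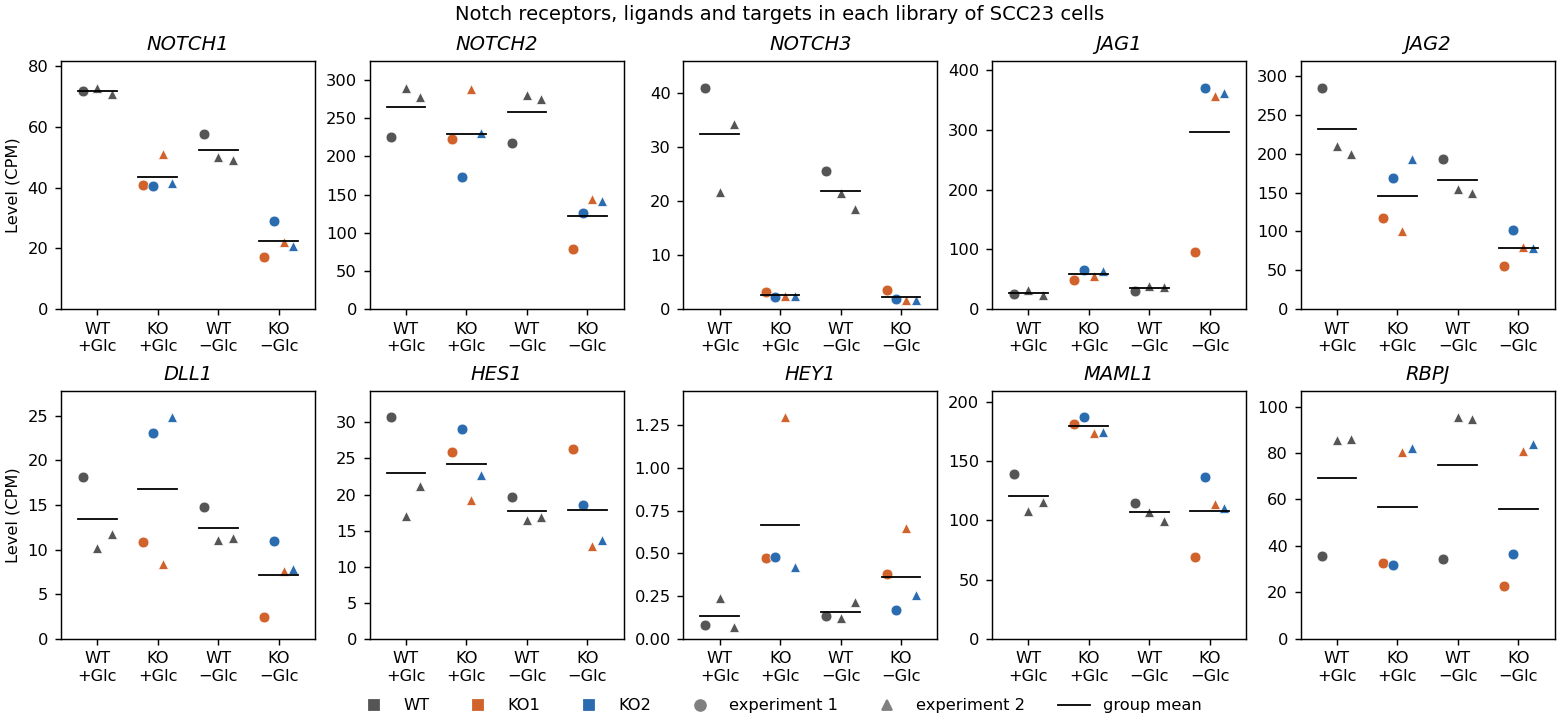
Level of each member in CPM (linear axis from 0) in the 14 libraries, grouped by genotype and glucose. Colour gives the line, shape the experiment, and the bar the group mean. NOTCH3 lies at 1.61 to 3.45 CPM in all KMT2D-KO libraries and at 18.5 to 41.0 CPM in all KMT2D-WT libraries, and JAG1 is highest in KMT2D-KO cells without glucose.

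To ask how loss of KMT2D changed the pathway, KMT2D-KO and KMT2D-WT cells were compared in each glucose condition with edgeR's quasi-likelihood test with experiment as a covariate, and a gene was called at a Benjamini-Hochberg adjusted p-value under 0.05 over all genes tested. With glucose, 5 of 10 members were called. NOTCH1 and NOTCH3 fell, and JAG1 and MAML1 rose. The fifth, HEY1, reached the test only because of its level in KMT2D-KO cells and had to be higher there, and without it 4 of 9 (44.4%) were called. Over all 20423 genes tested 24.7% were called, 13.0% higher and 11.7% lower in KMT2D-KO cells. Without glucose, 5 of the 9 members tested were called. NOTCH1, NOTCH2, NOTCH3 and JAG2 fell, and JAG1 rose. Here 50.8% of 16782 genes were called, 25.9% higher and 24.9% lower. The share of members called without glucose (55.6%) was thus near that of all genes in this fit. The fit takes the close pairs of libraries of experiment 2 without glucose as separate. With these pairs summed, 2785 of 16867 genes were called, and of the 5 members only JAG2 lost its call. With experiment left out of the fit, 3659 of 16782 genes were called, and none of the 5 members lost its call. The median absolute log2 fold change of the members was 0.62 with glucose (0.56 without HEY1) and 1.02 without glucose. Over all genes it was 0.35 and 0.51. The members were chosen with earlier results of these data known, so the shares and medians set beside all genes are descriptions. The groups did not overlap for 6 members in each condition, with HEY1 among those with glucose, beside 20.0% of all genes tested with and 35.4% without glucose. In bulk RNA, a change in the share of cells that express a gene and a change in the level per cell cannot be told apart.

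**Figure D2:**
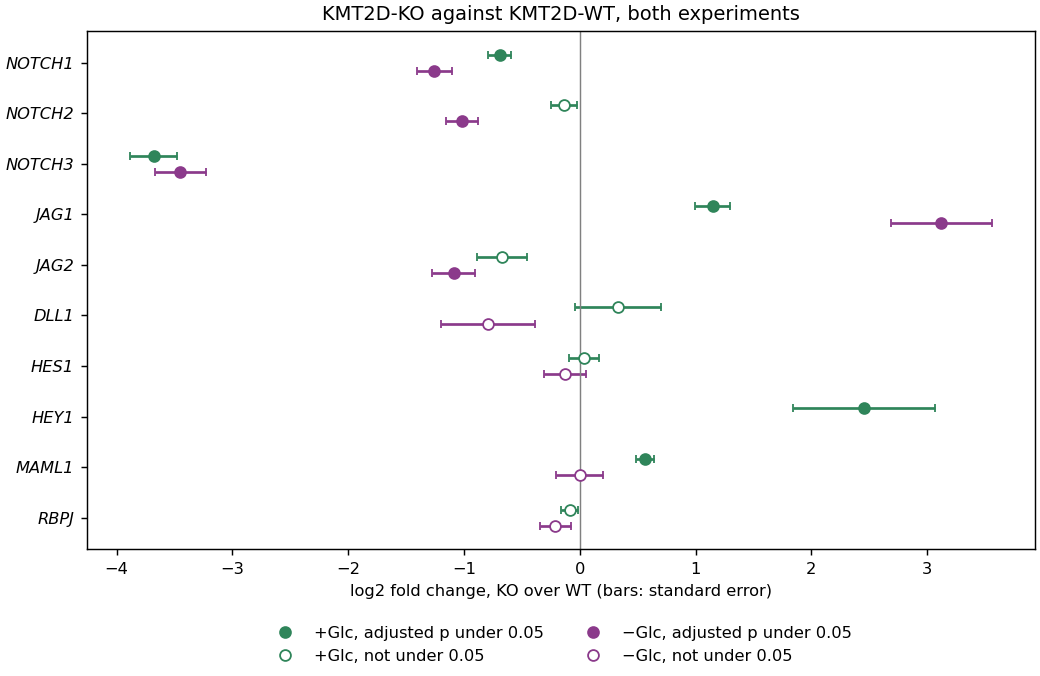
The log2 fold change of each member in KMT2D-KO over KMT2D-WT cells with its standard error, with glucose (green) and without (purple). Filled points have an adjusted p-value under 0.05. NOTCH3 is lowest in both conditions (−3.68 and −3.45), and JAG1 is the member whose change without glucose (3.12) lies farthest from that with glucose (1.15). HEY1 was not tested without glucose.

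NOTCH3 (chr19:15159038-15200995, minus strand) had the largest change. Its level with glucose was 41.0, 21.6 and 34.3 CPM in the KMT2D-WT libraries, at 3.19 and 2.16 CPM in KO1 and KO2 of experiment 1, and at 2.39 and 2.40 CPM in those of experiment 2. Without glucose it was 25.5, 21.4 and 18.5 CPM in KMT2D-WT cells and 3.45, 1.85, 1.72 and 1.61 CPM in KMT2D-KO cells. No KMT2D-KO library came near a KMT2D-WT library. The level in KMT2D-KO cells was 0.0780 times that in KMT2D-WT cells with glucose (log2 fold change −3.68, SE 0.20, adjusted p = 2.4e-05) and 0.0914 times without (−3.45, SE 0.22, adjusted p = 7.42e-05). It was of like size in each experiment, with a log2 ratio of group means of −3.73 and −3.26 with glucose and −3.09 and −3.24 without. The KMT2D-KO effect was not called different between glucose conditions (0.25, SE 0.32, adjusted p = 0.662).

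NOTCH1 (chr9:136494433-136546048, minus strand), the receptor most often mutated in HNSCC, fell less. With glucose it was at 71.8, 73.0 and 70.8 CPM in KMT2D-WT cells, and at 40.9, 40.5, 51.2 and 41.6 CPM in KMT2D-KO cells. In glucose-deprived cells it was at 57.8, 50.0 and 49.1 CPM in KMT2D-WT cells and at 17.3, 29.1, 22.1 and 20.9 CPM in KMT2D-KO cells. The groups did not overlap in either condition or in either experiment. The change was −0.69 (SE 0.10, adjusted p = 0.00127) with glucose and −1.25 (SE 0.15, adjusted p = 0.000691) without, and the difference between them was not called (−0.54, SE 0.20, adjusted p = 0.105). It was called without KO1 of experiment 1 (−0.41, adjusted p = 0.0363) or without KO2 of experiment 1 (−0.64, adjusted p = 0.0216) in glucose-deprived cells. Those fits called 4230 of 18767 and 2605 of 18810 genes, beside 2105 of 18678 in the main fit.

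NOTCH2 (chr1:119911553-120100779, minus strand) was the most abundant receptor per length. With glucose it was at 225.5, 290.1 and 277.2 CPM in KMT2D-WT cells and at 223.1, 173.3, 288.7 and 231.0 CPM in KMT2D-KO cells, so that the groups overlapped. Without glucose the KMT2D-WT libraries were at 217.4, 279.9 and 275.7 CPM, while the KMT2D-KO libraries were at 79.0, 125.9, 144.3 and 141.0 CPM, all below them. The change was −0.14 (SE 0.11, adjusted p = 0.442) with glucose and −1.02 (SE 0.14, adjusted p = 0.00104) without. NOTCH2 was 1 of the 2 members whose KMT2D-KO effect differed between glucose conditions (−0.85, SE 0.21, adjusted p = 0.0217), beside 11.3% of 18678 genes. This call was lost without any 1 of 6 libraries: each of the 3 KMT2D-WT libraries with glucose (−0.88 to −0.83, adjusted p = 0.0519 to 0.0693), KMT2D-WT of experiment 1 without glucose (−0.77, adjusted p = 0.099), the first KMT2D-WT library of experiment 2 without glucose (−0.87, adjusted p = 0.0522), and the library labelled KO2 of experiment 2 without glucose (−0.85, adjusted p = 0.0548). It was also lost when the close pairs of libraries of experiment 2 were summed (−0.88, adjusted p = 0.109). NOTCH2 has 19930 exonic bases, and genes over 12 kb had a median log2 fold change of −0.21 without glucose. With an offset for exonic length its change was −0.76 (adjusted p = 0.000283). Reads that NOTCH2 shares with its NOTCH2NL copies may be missing from it, which was not tested, and 4 of these copies summed to 0.185% to 1.02% of its CPM.

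The make-up of the receptor transcripts shifted with these changes. As a share of the summed RPKM of the 3 receptors (CPM per kilobase of exon), NOTCH3 made up 9.69% to 19.4% in KMT2D-WT cells with glucose and 1.30% to 2.20% in KMT2D-KO cells. NOTCH2 made up 50.5% to 61.4% and 68.3% to 74.1%. NOTCH1 kept to overlapping shares, 27.5% to 30.1% and 24.6% to 29.9%. The summed RPKM itself was 22.4 to 24.2 in KMT2D-WT cells and 12.7 to 19.6 in KMT2D-KO cells with glucose, and 19.1 to 21.0 and 5.96 to 9.50 without. NOTCH4, the receptor known from endothelium, was at 0.112 to 1.07 CPM in all libraries.

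JAG1 (chr20:10637684-10673999, minus strand) was the ligand that rose. With glucose it was at 25.0, 32.3 and 22.8 CPM in KMT2D-WT cells and at 48.9, 65.0, 54.6 and 63.4 CPM in KMT2D-KO cells, and the groups did not overlap. Without glucose the KMT2D-WT libraries stayed at 30.0, 37.8 and 37.4 CPM, and the KMT2D-KO libraries were at 95.5, 370.8, 356.2 and 361.1 CPM. The lowest of these was KO1 of experiment 1, the library in which KMT2D also stood apart. The fold change was 2.21 with glucose (log2 1.15, SE 0.15, adjusted p = 0.000931) and 8.71 without (log2 3.12, SE 0.43, adjusted p = 0.00121). Without the library of KO1 of experiment 1 the log2 fold change in glucose-deprived cells was 3.35 (SE 0.05). The KMT2D-KO libraries left in that fit are KO2 of experiment 1 and the close pair of experiment 2, which both lay near KO2. It called 12448 of 16739 genes, and its small SE may reflect technical spread. The effect differed between glucose conditions (2.01, SE 0.46, adjusted p = 0.0171). That call was lost without KMT2D-WT of experiment 1 with glucose (2.04, adjusted p = 0.0601) and without any 1 of the 3 KMT2D-WT libraries without glucose (1.97 to 2.16, adjusted p = 0.051 to 0.0527). With the close pairs summed it was lost too (1.95, adjusted p = 0.108). JAG1 shares 3.29% of its exonic bases with AL050403.2, and counts made without strand cannot part them.

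JAG2 (chr14:105140982-105168824, minus strand) moved the other way. It was the ligand with the highest RPKM in KMT2D-WT cells, at 31.3 to 44.6 with glucose, where JAG1 was at 2.46 to 3.47 and DLL1 at 2.68 to 4.74. In CPM it was at 285.5, 210.7 and 200.5 in KMT2D-WT cells with glucose and at 118, 169.1, 101 and 193.8 in KMT2D-KO cells. In glucose-deprived cells it was at 193.1, 154.7 and 149.5 CPM in KMT2D-WT cells, and at 55.4, 101.9, 79.9 and 79.0 CPM in KMT2D-KO cells. The groups did not overlap in either condition, but the change was called without glucose only (−1.09, SE 0.18, adjusted p = 0.00281), and with glucose it missed the limit (−0.67, SE 0.22, adjusted p = 0.052), passing it without KO2 of experiment 2 (−1.0, adjusted p = 0.00102) and with DESeq2 (−0.67, adjusted p = 0.0168). With the close pairs summed it missed the limit without glucose too (−1.14, adjusted p = 0.0505). The 2 changes were not called different (−0.39, SE 0.34, adjusted p = 0.5). Of its exonic bases, 7.33% are shared with AL512356.1.

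DLL1 (chr6:170282206-170306565, minus strand), a Delta-like ligand, was not called in either comparison. It was at 18.1, 10.2 and 11.8 CPM in KMT2D-WT cells with glucose and at 10.8, 23.0, 8.43 and 24.8 CPM in KMT2D-KO cells. The low and high KMT2D-KO values belong to KO1 and KO2, respectively. Without glucose it was at 14.8, 11.1 and 11.3 CPM in KMT2D-WT cells and at 2.39, 10.9, 7.57 and 7.82 CPM in KMT2D-KO cells. These groups did not overlap, with a log2 fold change of −0.79 (SE 0.41, adjusted p = 0.144). Without KO1 of experiment 1 the change was smaller and called (−0.52, SE 0.09, adjusted p = 2.74e-05). That fit called 12448 of 16739 genes, 9 members among them, so its call was not particular to DLL1. DLL1 shares 9.69% of its exonic bases with FAM120B.

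Together these ligand changes altered which ligand made up most of the ligand RNA. JAG2 took 84.3% to 85.7% of the summed RPKM of the 3 ligands in KMT2D-WT cells with glucose and 66.1% to 69.5% in KMT2D-KO cells. Without glucose it took 77.0% to 80.9% in KMT2D-WT cells and 23.2% to 44.3% in KMT2D-KO cells. JAG1 took 5.17% to 8.87%, 15.6% to 24.6%, 8.66% to 13.3% and 52.5% to 72.9% in the same order. JAG1 was thus the leading ligand in each of the 4 KMT2D-KO libraries without glucose, and JAG2 in each of the other libraries. DLL1 took between 3.19% and 15.3% of the ligand RPKM in any library.

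**Figure D3:**
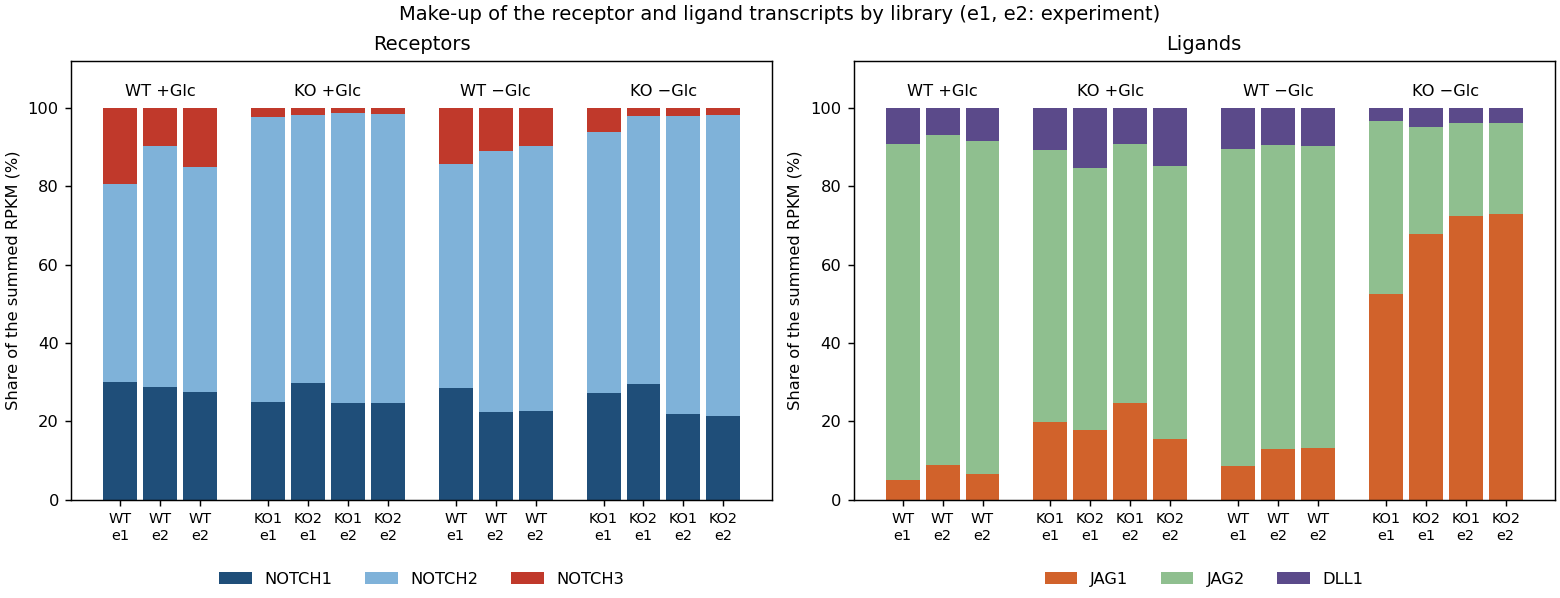
Share of each receptor (left) and ligand (right) in the summed RPKM of its kind, one bar per library. NOTCH3 shrinks from 9.62% to 19.4% in KMT2D-WT libraries to 1.30% to 6.16% in KMT2D-KO libraries, and JAG1 reaches 52.5% to 72.9% of the ligands in KMT2D-KO cells without glucose.

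Downstream of the receptors, RBPJ (chr4:26163455-26435131, plus strand), which binds DNA for the complex, showed no called change. Its level was set apart by experiment, at 22.9 to 36.3 CPM in the 6 libraries of experiment 1 and at 80.5 to 95.4 CPM in the 8 libraries of experiment 2. KMT2D-KO cells were at −0.09 (SE 0.08, adjusted p = 0.461) with glucose and −0.21 (SE 0.13, adjusted p = 0.222) without. Without glucose the change was called without KO1 of experiment 1 (−0.15, adjusted p = 0.0121) or without KO2 of experiment 1 (−0.33, adjusted p = 0.0233). Over all genes, the first of these fits called 12448 of 16739 and the second 9195 of 16715. The log2 ratio of genes over 9 kb to genes under 2 kb also differed between experiments, at −1.40 to −0.28 in experiment 1 and −0.14 to 0.93 in experiment 2. Without glucose it also moved with genotype, from −0.36 in KMT2D-WT cells to −1.40 in KO1 and −0.74 in KO2 in experiment 1, and from 0.35 and 0.30 to −0.06 and −0.14 in experiment 2. RBPJ has 9253 exonic bases, and the part of length in its difference between experiments was not tested. Its 4 processed copies summed to at most 0.0574% of its CPM.

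MAML1 (chr5:179732822-179777283, plus strand), the Mastermind-like coactivator, rose with glucose. It was at 139.2, 107.6 and 115.7 CPM in KMT2D-WT cells and at 181.4, 187.0, 174.1 and 174.8 CPM in KMT2D-KO cells (log2 fold change 0.56, SE 0.08, adjusted p = 0.00137). Without glucose it was at 114.5, 107.4 and 99.8 CPM in KMT2D-WT cells and at 69.3, 136.3, 113.6 and 110.8 CPM in KMT2D-KO cells. The lowest value was again KO1 of experiment 1. The change was −0.00 (SE 0.20, adjusted p = 0.995), and without that library it was positive and called (0.15, SE 0.04, adjusted p = 0.00509), as were 12448 of 16739 genes. The difference between conditions was not called (−0.53, SE 0.24, adjusted p = 0.18). It was called without that library (−0.37, adjusted p = 0.0186) or without KO2 of the same experiment and condition (−0.68, adjusted p = 0.0306). Those fits called 4230 of 18767 and 2605 of 18810 genes, beside 2105 of 18678 in the main fit.

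Of the targets, HES1 (chr3:194136148-194138732, plus strand), whose promoter letters are printed above, was not called in either condition. With glucose it was at 30.7, 17.0 and 21.1 CPM in KMT2D-WT cells and at 25.9, 29.0, 19.3 and 22.8 CPM in KMT2D-KO cells (log2 fold change 0.04, SE 0.13, adjusted p = 0.871). Without glucose it was at 19.6, 16.4 and 17.0 CPM in KMT2D-WT cells and at 26.3, 18.5, 12.9 and 13.7 CPM in KMT2D-KO cells (−0.13, SE 0.18, adjusted p = 0.579). Without glucose KO1 of experiment 1 was the highest of the KMT2D-KO libraries. Without it HES1 was called lower (−0.26, SE 0.07, adjusted p = 0.00412), in the fit that called 12448 of 16739 genes. It was called lower in experiment 2 alone too (−0.33, SE 0.08, adjusted p = 0.000589), in a fit that called 12888 of 17304 genes. In the main fits, the receptors NOTCH1 and NOTCH3 were called lower and HES1 was not called, which does not show that HES1 was unchanged.

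HEY1 was near the limit of detection. It had 2, 16 and 4 counts in KMT2D-WT libraries with glucose and 8, 10, 84 and 25 counts in KMT2D-KO libraries, or 0.0683 to 0.241 and 0.423 to 1.30 CPM. It passed the filter on low counts only through the KMT2D-KO libraries, so it had to differ, and its call (log2 fold change 2.46, SE 0.61, adjusted p = 0.0183) is given as a description. The call was lost without KMT2D-WT of experiment 1 (2.44, adjusted p = 0.0861), without KO1 of experiment 2 (1.75, adjusted p = 0.0787) or without the second KMT2D-WT library of experiment 2 (2.03, adjusted p = 0.081). Without glucose it had 3 to 6 counts in KMT2D-WT and 3 to 14 counts in KMT2D-KO libraries and was not tested.

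The lines KO1 and KO2 were then compared with each other in cells kept in glucose. They were made with different sgRNAs, so guide and line cannot be told apart. Of the 10 members 3 were called, beside 15.3% of all genes. DLL1 was higher in KO2 (1.35, SE 0.17, adjusted p = 8.73e-05), as was JAG2 (0.74, SE 0.12, adjusted p = 0.000518), and NOTCH2 was lower (−0.35, SE 0.08, adjusted p = 0.00552). Against KMT2D-WT cells DLL1 was lower in KO1 (−0.49, SE 0.16, adjusted p = 0.03) and higher in KO2 (0.86, SE 0.15, adjusted p = 0.000276). JAG2 was lower in both, by −1.09 in KO1 and −0.35 in KO2 (adjusted p = 1.88e-06 and 0.018). NOTCH3, NOTCH1, JAG1 and MAML1 moved in one direction in both lines. NOTCH3 was at −3.57 and −3.77 and JAG1 at 0.98 and 1.29 in KO1 and KO2. In all, 7 members were called in KO1 and 8 in KO2, beside 33.6% and 36.8% of all genes. Without HEY1, which had to be higher, these were 6 of 9 (66.7%) and 7 of 9 (77.8%). With 1 library left out, a line is left with 1 library, which is assumed to vary like the others. The NOTCH2 call was then lost without any 1 of the 4 KMT2D-KO libraries (−0.39 to −0.33, adjusted p = 0.0675 to 0.112), and the JAG2 call without KO2 of experiment 2 (0.43, adjusted p = 0.0721). JAG1, at 0.30 (adjusted p = 0.147), was called without the second KMT2D-WT library of experiment 2 (0.31, adjusted p = 0.0294).

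Glucose deprivation was compared within genotypes. In experiment 1 both conditions were counted alike, and its 6 libraries were fitted with line as a block, with 1 library per line and condition. There 1.10% of 16066 genes were called, among them JAG2 of the 9 members tested (−0.84, SE 0.17, adjusted p = 0.0435). JAG2 went from 285.5 to 193.1 CPM in KMT2D-WT cells, from 118.0 to 55.4 CPM in KO1 and from 169.1 to 101.9 CPM in KO2. This call was lost without KO2 with glucose (−0.86, adjusted p = 0.105) or without KO2 deprived of glucose (−0.87, adjusted p = 0.1). JAG1 went from 25.0 to 30.0 CPM in KMT2D-WT cells, from 48.9 to 95.5 CPM in KO1 and from 65.0 to 370.8 CPM in KO2 (1.20, SE 0.32, adjusted p = 0.0916). The ratio was thus 1.20 in KMT2D-WT cells, 1.95 in KO1 and 5.70 in KO2, with 1 pair of libraries each. Without either KMT2D-WT library, the estimate rests on the pairs of KO1 and KO2, and 6 members were called. Over all genes 1274 of 16684 were called without the one with glucose, and 1336 of 16703 without the deprived one. The members were JAG1 (1.68), JAG2, NOTCH1 (−0.92), NOTCH2 (−1.05), DLL1 (−1.62) and MAML1 (−0.99), with adjusted p = 0.00055 to 0.0257 for those other than JAG2. Without KO1, in either condition, JAG1 was called too (1.40, adjusted p = 7.5e-05 and 0.000736).

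In KMT2D-WT cells of both experiments, 2 of 9 members were called lower without glucose, NOTCH1 (−0.47, SE 0.06, adjusted p = 0.0218) and JAG2 (−0.48, SE 0.05, adjusted p = 0.0168), beside 14.7% of all genes. Both calls were lost without any 1 of the 4 KMT2D-WT libraries of experiment 2 (adjusted p = 0.0621 to 0.162), with changes of −0.46 to −0.43 for NOTCH1 and −0.52 to −0.47 for JAG2. JAG1 (0.39, SE 0.14, adjusted p = 0.102) was called without KMT2D-WT of experiment 1 in either condition (0.44 and 0.45, adjusted p = 0.0416 and 0.0412). In KMT2D-KO cells 6 of 10 members were called, beside 30.0% of all genes. JAG1 rose (2.29, SE 0.39, adjusted p = 0.00656). NOTCH1 (−0.99, SE 0.17, adjusted p = 0.00689), NOTCH2 (−0.94, SE 0.17, adjusted p = 0.00786), JAG2 (−0.91, SE 0.25, adjusted p = 0.0322), MAML1 (−0.77, SE 0.19, adjusted p = 0.0221) and HES1 (−0.51, SE 0.15, adjusted p = 0.0384) fell. The HES1 call was lost without any 1 of 7 of the 8 libraries (−0.56 to −0.43, adjusted p = 0.0707 to 0.165), KO1 of experiment 1 without glucose being the exception, and also with line within experiment as a block (−0.52, adjusted p = 0.0651). JAG2 lost its call without KO2 with glucose of either experiment or either KMT2D-KO library of experiment 2 without glucose (−0.91 to −0.71, adjusted p = 0.0728 to 0.0983). MAML1 lost it without KO2 of experiment 2 with glucose or either KMT2D-KO library of experiment 2 without glucose (−0.80 to −0.77, adjusted p = 0.0521 to 0.0706). These comparisons include the libraries of experiment 2 that were counted with both mates. NOTCH3 was not called on glucose deprivation in any of the 3 comparisons (−0.56 to −0.31).

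**Figure D4:**
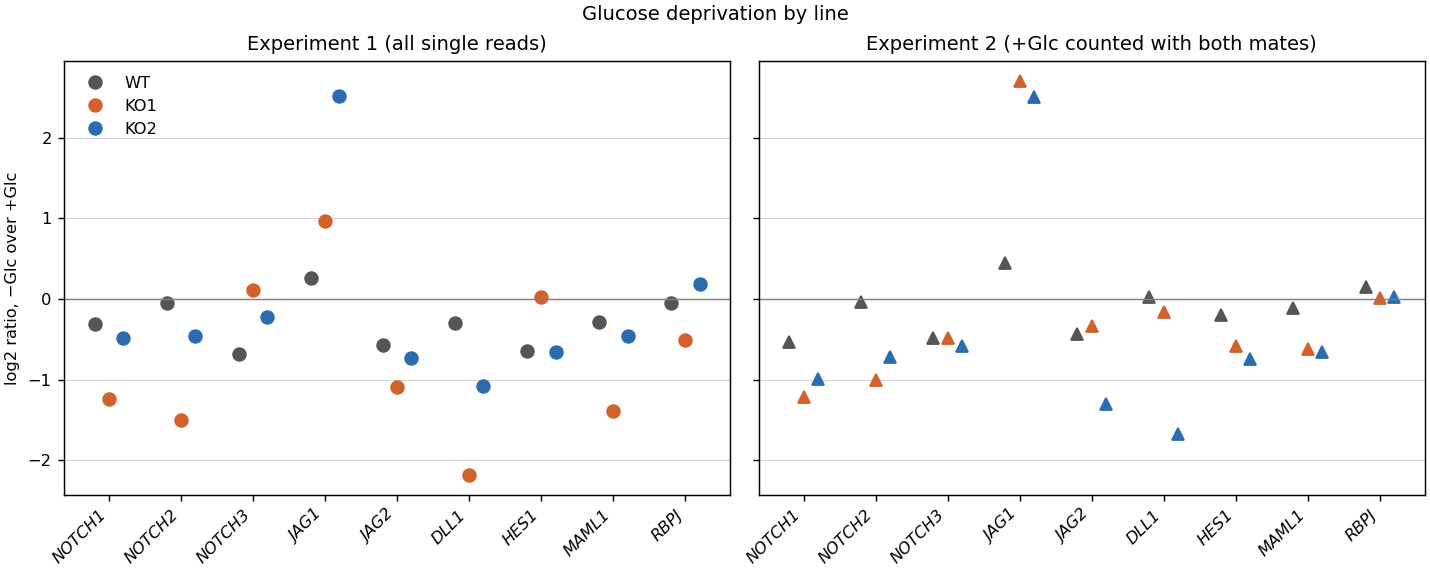
The log2 ratio of the level without glucose over that with glucose in each line, for experiment 1 (left, 1 library per point and condition) and experiment 2 (right, where the KMT2D-WT points are means over libraries and the library labelled KO1 without glucose lay near KO2). HEY1 is left out for its low counts. JAG1 lies at 2.51 to 2.71 in KO2 of experiment 1 and in both KMT2D-KO points of experiment 2, at 0.97 in KO1 of experiment 1, and at 0.26 and 0.45 in KMT2D-WT cells.

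The rest of the pathway was followed in 54 other genes. With glucose 14 of the 50 tested were called (28%, beside 24.7% of all genes), 4 higher and 10 lower. DTX4, treated below, was among the higher, and without it 13 of 49 (26.5%) were called. Without glucose 21 of 46 were called (45.7%, beside 50.8%), 10 higher and 11 lower, or 20 of 45 (44.4%) without DTX4. Among the lower, LFNG had 14 to 29 counts in KMT2D-WT and 1 to 6 in KMT2D-KO libraries. It passed the filter only through KMT2D-WT libraries and had to be lower. The median absolute log2 fold change was 0.28 and 0.35, below the 0.35 and 0.51 of all genes. None of the 9 genes of receptor cleavage was called with glucose, and 3 were without: APH1A and PSENEN, subunits of γ-secretase, were higher and the protease ADAM17 was lower. Of the 4 other ligands tested, 3 were lower in either condition. One of these, DLL4, had 29 to 31 counts in KMT2D-WT and 3 to 7 in KMT2D-KO libraries without glucose. There it passed the filter only through KMT2D-WT libraries and had to be lower. DLK2, an atypical ligand, was at 18.2 to 24.4 CPM in KMT2D-WT and 5.38 to 7.08 CPM in KMT2D-KO cells with glucose (−1.78, SE 0.16, adjusted p = 0.000125), and also fell without (−1.44, SE 0.22, adjusted p = 0.00192). DNER, an atypical ligand known from neurons, was lower with glucose (−1.33, SE 0.26, adjusted p = 0.00563), as was DLL4 (−1.32, SE 0.39, adjusted p = 0.0384), the Delta-like ligand of vessels, at 0.625 to 3.69 CPM in these libraries. The DNER call was lost without KMT2D-WT of experiment 1 (−1.29, adjusted p = 0.0758). The DLL4 call was lost without KMT2D-WT of experiment 1 (−1.54, adjusted p = 0.101), KO2 of either experiment (−1.34 and −1.06, adjusted p = 0.0564 and 0.0986) or the first KMT2D-WT library of experiment 2 (−0.80, adjusted p = 0.183).

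Among the targets outside the members, NRARP, which codes for an ankyrin repeat inhibitor of the Notch complex, fell while HES1 was not called. With glucose it was at 24.0, 10.1 and 20.2 CPM in KMT2D-WT cells and at 5.08, 7.79, 3.94 and 7.08 CPM in KMT2D-KO cells (−1.62, SE 0.29, adjusted p = 0.00404). Without glucose it was at 6.53 to 6.57 CPM in KMT2D-WT cells and at 1.69 to 3.64 CPM in KMT2D-KO cells (−1.37, SE 0.23, adjusted p = 0.00262). The groups did not overlap in either condition. The call with glucose was lost without KMT2D-WT of experiment 1 (−1.46, adjusted p = 0.0717), and the call without glucose when the close pairs were summed (−1.27, adjusted p = 0.0504). HES4 was the other target called with glucose, also lower.

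Regulators of receptor and ligand turnover moved in both directions. DTX4, a Deltex ubiquitin ligase, was at 0.123 to 0.452 CPM in KMT2D-WT and at 2.60 to 5.32 CPM in KMT2D-KO cells with glucose (4.07, SE 0.44, adjusted p = 0.00031), and at 0.0889 to 0.213 and 1.86 to 3.19 CPM without (3.79, SE 0.36, adjusted p = 0.000271). With 2 to 30 counts in the KMT2D-WT libraries, it passed the filter only through its KMT2D-KO libraries. It thus had to be higher there, and its calls are given as a description. DTX3 of the same family was higher without glucose (0.73, SE 0.11, adjusted p = 0.00163). NEURL1B, a ubiquitin ligase for Notch ligands, was at 122.1 to 140.6 CPM in KMT2D-WT and 27.1 to 57.9 CPM in KMT2D-KO cells without glucose (−1.42, SE 0.23, adjusted p = 0.0025), while MIB2, another, was higher (0.65, SE 0.07, adjusted p = 0.000594). CDK8, which phosphorylates the active receptor for turnover, was higher with glucose (0.34, SE 0.08, adjusted p = 0.0132) and without (0.67, SE 0.10, adjusted p = 0.00146). Its call with glucose was lost without KMT2D-WT of experiment 1 (0.35, adjusted p = 0.0883) or the first KMT2D-WT library of experiment 2 (0.33, adjusted p = 0.0572). Of the acetyltransferases that act as coactivators, CREBBP was higher with glucose (0.58, SE 0.08, adjusted p = 0.000863, but 0.128 with all 14 libraries in 1 fit), KAT2A slightly so (0.32, SE 0.09, adjusted p = 0.0306), and KAT2B was lower without glucose (−1.28, SE 0.29, adjusted p = 0.00969). The KAT2A call was lost without any 1 of the 3 KMT2D-WT libraries or without KO2 of either experiment (0.27 to 0.38, adjusted p = 0.0509 to 0.166). With the close pairs summed, the KAT2B call was lost (−1.20, adjusted p = 0.117). A KMT2D-KO effect that differed with glucose was called for 2 of the 50 other genes (4%, beside 11.3% of all genes), the coactivator MAML2 (0.63, SE 0.18, adjusted p = 0.0395) and the corepressor CIR1 (0.62, SE 0.18, adjusted p = 0.0451). Leaving out 1 library ended the call of MAML2 for 10 of 14 libraries (adjusted p = 0.0528 to 0.116) and that of CIR1 for 12 of 14 (adjusted p = 0.0501 to 0.163), and both were lost with the close pairs summed (adjusted p = 0.189 and 0.163).

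On glucose deprivation in experiment 1, 2 of 47 other pathway genes were called (4.26%, beside 1.10% of all genes). MFNG, the fringe enzyme that adds sugars to Notch receptors, went from 24.1 to 4.49 CPM in KMT2D-WT cells, from 11.6 to 3.95 CPM in KO1 and from 15.7 to 5.15 CPM in KO2 (−1.91, SE 0.25, adjusted p = 0.00914). In experiment 2 it was at 11.7 to 27.5 CPM with glucose and at 1.76 to 3.37 CPM without. Every library without glucose was thus below every library with glucose. NEURL1 went from 120.9 to 188.5 CPM in KMT2D-WT cells, from 40.9 to 69.0 CPM in KO1 and from 73.8 to 182.6 CPM in KO2 (0.85, SE 0.17, adjusted p = 0.0438). That call was lost without KO2 with glucose (0.66, adjusted p = 0.333) or without KO2 deprived of glucose (0.65, adjusted p = 0.316).

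The genes whose pattern was most like that of each member were found among 9492 genes with a mean of at least 10 CPM, by Pearson's correlation of log2 CPM over the 14 libraries after the mean of each experiment and glucose condition was taken off. The points share genotype, so any gene with a large KMT2D-KO effect scores high, and the values are descriptions. NOTCH3 was most like SPAG5, DTNBP1 and HSPA2 (0.993, 0.991 and 0.991). JAG1 was most like PDLIM5, NFIL3 and SNAI2 (0.998, 0.992 and 0.991). NOTCH1 was most like EVPL, PTPN21 and MYO9B (0.995, 0.995 and 0.994), and NOTCH2 most like WDR27 (0.996). For JAG2 it was NCAPG2 (0.99), for DLL1 FRAS1 (0.972), for MAML1 CHD7 (0.971) and for RBPJ PCNX1 (0.972). HES1 had the weakest match, DUS2 (0.873), and HEY1 was below the level used.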

How the data were processed

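PolyA RNA of 14 SCC23 libraries was sequenced on an Illumina machine. Per the file headers and the methods, the authors mapped reads to GRCh38 with HISAT2 and counted them with featureCounts 2.0.3 on the Ensembl 102 annotation by gene name, without strand and for primary alignments. The deposited values are raw counts per gene. Groups were taken from the sample titles. The members and gene lists were chosen with earlier results of these data known.

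Genes that filterByExpr kept at a minimum count of 10 were tested by the quasi-likelihood method of edgeR 4.0.16 under R 4.3.3, with TMM factors and Benjamini-Hochberg adjustment over all genes. Experiment was a covariate, while the methods name DESeq2 and give no design; the pairing by experiment comes from the titles. CPM were scaled over all 14 libraries, and RPKM are CPM per kilobase of exon. Depths of 15669154 to 62968057 counts left NOTCH3 with 33 to 155 counts in KMT2D-KO libraries, DLL1 with 38 in KO1 of experiment 1 without glucose and HEY1 with 2 to 84, where counting error is largest. The scripts were checked on simulated data. Named genes are the members, KMT2D, and up to 4 other pathway genes per direction with the largest called change and at least 1 CPM, in the comparisons of genotypes and of glucose in experiment 1. For each member, the 3 most similar genes were found. MAML2, CIR1, HES4, APH1A, PSENEN, ADAM17, NOTCH4 and single cell type markers (KRT14, KRT17, KRT5, CDH1, COL1A1, DCN, LUM, PDGFRB and CDH5) were singled out after their values were seen. Alternatives were RLE and library-size scaling, no filter, DESeq2 1.42.0, no covariate, single lines or experiments, halved counts, summed close pairs, all libraries in 1 fit, each library left out, and, added after the data were seen, an offset for exonic length.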

Additional observations from a re-analysis of the deposited data

Results flagged for a closer look

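A library lay far from the other 3 of its group for 4 members, among 19 groups of 4 examined by Dixon's test at the 95% level. Chance would mark about 1 in 20 if the libraries of a group were alike, but each group mixes 2 lines and 2 experiments. In KMT2D-KO cells with glucose, KO1 of experiment 2 held 51.2 CPM of NOTCH1, against 40.5 to 41.6 CPM in the others, and 1.30 CPM of HEY1, against 0.423 to 0.481 CPM. Without glucose, KO1 of experiment 1 held 3.45 CPM of NOTCH3 (55 counts), against 1.61 to 1.85 CPM (33 to 38 counts), and 95.5 CPM of JAG1, against 356.2 to 370.8 CPM. The latter library is also the one with 19.9 CPM of KMT2D. Of the KMT2D-KO libraries without glucose it alone lay near KO1, at a mean log2 distance of 0.59. The others lay near KO2, at 0.35 to 0.41, so line and library cannot be told apart there.

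The KMT2D-KO effect differed between glucose conditions for NOTCH2 (−0.85 on the log2 scale, adjusted p = 0.0217 in edgeR's test of the difference) and JAG1 (2.01, adjusted p = 0.0171). Leaving out 1 library ended the call of NOTCH2 for 6 of 14 libraries and that of JAG1 for 4 of 14, and with the close pairs summed both were lost (adjusted p = 0.109 and 0.108). Between the lines KO1 and KO2 with glucose, NOTCH2 (−0.35, adjusted p = 0.00552), JAG2 (0.74, adjusted p = 0.000518) and DLL1 (1.35, adjusted p = 8.73e-05) differed. The call of NOTCH2 was lost without any 1 of the 4 KMT2D-KO libraries, and that of JAG2 without KO2 of experiment 2.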

How the results depend on the processing

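Over the 67 tests of members, 967 of 1088 values under alternatives kept their direction and side of the limit, 62 lost a call, 56 gained one and 3 reversed. The reversed values were DLL1 in KO1 alone with glucose (−0.49) and MAML1 without glucose, at 0.11 in experiment 2 alone and at −0.17 to 0.15 with 1 library left out, the highest without KO1 of experiment 1.

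Without the block for experiment or line, the number of members called went from 5 to 3 with glucose and to 0 for the difference between conditions, for KO2 against KO1, and for deprivation in KMT2D-WT cells and in experiment 1, and over all genes to 971, 70, 10, 2 and 0. All genes called went to 3659 without glucose and 1465 for deprivation in KMT2D-KO cells. With line within experiment as a block, deprivation in KMT2D-KO cells lost HES1.

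The number of members called was 8 in KO2 alone with glucose (7 without HEY1) and 9 in experiment 2 alone without glucose. For the difference it was 4 by library size, 5 with no filter and 0 with the close pairs summed. For deprivation in KMT2D-WT cells it was 4 with no filter and 4 with DESeq2, and in experiment 1 it was 0 by library size, 6 with no filter, 3 with DESeq2 and 2 with the offset for length. With 1 library left out it ranged from 4 to 6 with glucose, 5 to 9 without, 0 to 4 for the difference, 1 to 4 between lines, 0 to 3 for deprivation in KMT2D-WT cells, 3 to 6 in KMT2D-KO cells and 0 to 6 in experiment 1. The cause was not tested.

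Over all genes, calls with glucose numbered 2228 with DESeq2 without experiment and 2336 in experiment 2 alone. Without glucose they numbered 4887, 12888 and, with the close pairs summed, 2785. Leaving out KO1 of experiment 1 raised the calls without glucose from 8521 to 12448. For the difference they numbered 3416 with DESeq2 and 258 with the close pairs summed. For deprivation in KMT2D-WT cells they numbered 5560 with no filter and 6442 with DESeq2, in KMT2D-KO cells 7592 with DESeq2, and in experiment 1 329 with RLE, 44 by library size, 1158 with no filter, 590 with DESeq2 and 521 with the offset. Without 1 library they fell to as few as 2142 with glucose, 788 for the difference, 905 between lines, 0 for deprivation in KMT2D-WT cells (without the second library of experiment 2 with glucose) and 1991 in KMT2D-KO cells, and reached 4230 for the difference, 8747 in KMT2D-WT cells and 1336 in experiment 1. Library-size scaling shifted the median of all genes to −0.25 without glucose, −0.23 for the difference, −0.20 for deprivation in KMT2D-KO cells and −0.16 in experiment 1, and the share of calls that were higher from 51.0% to 30.2% without glucose, from 42% to 9.90% for the difference, from 48.3% to 35.0% between lines and from 46.5% to 20.5% for deprivation in KMT2D-KO cells. HEY1, with 2 to 84 counts, is limited by depth.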
